A study of Caenorhabditis elegans with 2 samples.

Results

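The 10 genes described here are the Hox genes of Caenorhabditis elegans and the TALE homeobox genes that act as their cofactors, examined for occupancy by the zinc finger transcription factor EOR-1. The 6 Hox genes are ceh-13, lin-39, mab-5, egl-5, nob-1 and php-3, and the 4 cofactor genes are ceh-20, ceh-40, ceh-60 and unc-62. They were chosen by name and not by a measured value, though with earlier results of these data known, out of 19973 protein-coding genes. A region was counted for a gene when its summit lay inside the gene or up to 10000 bp upstream of it, and 64 of 30000 pooled candidate regions did. The replicate lists, also of 30000 regions each, had 55 such regions in replicate 1 and 59 in replicate 2, and the optimal list had 0 of its 285 peaks there.

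EOR-1 was mapped by chromatin immunoprecipitation and sequencing in whole L3 larvae of strain OP81, both sexes pooled and age not given. The animals carried the transgene insertion wgIs81, which expresses eGFP-tagged eor-1, in an unc-119(ed3) background. The 2 biological replicates form 1 group and no other condition was sampled, so no test between groups exists. Whole animals were used, so occupancy in the few cells that use a given Hox gene cannot be told apart from occupancy elsewhere. The labels do not say which cells express the transgene.

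Hox genes encode homeodomain transcription factors that give cells their identity along the body axis. In the nematode they are spread over chromosome III in separate pairs and pattern the ventral midline, the migrating neuroblasts, the posterior body and the male tail. TALE homeodomain proteins of the PBC class (CEH-20, CEH-40 and CEH-60) and of the Meis class (UNC-62) bind DNA together with Hox proteins and sharpen their choice of sites. EOR-1 works downstream of the Ras and Wnt pathways, and Wnt signals also set the expression of several Hox genes.

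None of the 10 genes had a peak in the optimal list, the list of reproducible peaks that the authors drew from the replicates by irreproducible discovery rate. This count was 0 of 10 (exact Clopper-Pearson 95% interval 0 to 30.8%), against 3.14% of all protein-coding genes with such a peak in the same kind of window. With 10 genes, a share like that of all genes cannot be told from none. The highest pooled signal at any member was 33.4, below the lowest signal of a nuclear optimal peak, 52.7. The signal is the authors' own value per region, and no source used here gives its scale.

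The sequences around the summits that lead at lin-39, mab-5, egl-5 and ceh-13 are shown with an optimal peak. The letters under a weak candidate can thus be set beside those under a reproducible peak. Each run is 101 bases of build ce11, plus strand, centred on the summit and taken from the RefSeq genome. Capitals mark the words searched on both strands. These were GAGACGCAG or AGACGCAGA, recalled for EOR-1, the shorter word GAGAG, TGATNNAT, recalled for Hox proteins with a PBC cofactor, and TGACAG, recalled for Meis proteins. GAGACGCAG and AGACGCAGA overlap each other. The last sequence is the optimal peak closest to both lin-39 and ceh-13, whose closest transcript start is that of ogt-1, 269 bp away. That gene encodes O-GlcNAc transferase and is named here after its values were seen.
lin-39, intron, chrIII:7533406-7533506: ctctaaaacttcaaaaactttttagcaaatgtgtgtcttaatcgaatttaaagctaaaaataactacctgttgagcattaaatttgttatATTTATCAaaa
mab-5, upstream, chrIII:7787839-7787939: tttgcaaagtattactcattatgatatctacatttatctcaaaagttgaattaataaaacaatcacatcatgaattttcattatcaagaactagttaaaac
egl-5, upstream, chrIII:7805753-7805853: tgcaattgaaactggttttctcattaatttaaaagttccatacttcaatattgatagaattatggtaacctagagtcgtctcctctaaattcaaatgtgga
ceh-13, upstream, chrIII:7548588-7548688: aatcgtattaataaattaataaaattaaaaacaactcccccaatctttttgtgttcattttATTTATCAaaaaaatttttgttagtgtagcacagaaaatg
lin-39 and ceh-13, shared upstream, chrIII:7546392-7546492: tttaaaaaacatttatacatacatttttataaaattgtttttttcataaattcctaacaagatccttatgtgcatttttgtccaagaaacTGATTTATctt
ogt-1, optimal peak, chrIII:7154016-7154116: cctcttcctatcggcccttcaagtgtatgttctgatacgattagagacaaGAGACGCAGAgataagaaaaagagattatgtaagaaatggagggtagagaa

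The words recalled for EOR-1 were absent from the summits of the Hox and cofactor genes. Either form was within 50 bp of 0 of the 64 summits (exact 95% interval 0 to 5.60%), against 0.380% of all nuclear pooled regions and 11.7% of the 256 nuclear optimal peaks. The interval holds the 0.380%, so the members cannot be told from the pooled list at large. GAGAG was at 2 of 64 (3.12%, 0.381 to 10.8%), both outside promoters, 1 upstream of lin-39 and 1 in a mab-5 intron. It was at 7.03% of all pooled regions and at 32.8% of optimal peaks. The absence says only that these letters are not in these windows.

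The Hox-PBC word TGATNNAT was at 9 of 64 summits (14.1%, 6.64 to 25.0%), against 8.38% of all pooled regions and 3.52% of optimal peaks. Most of the 9 lay in the 1 stretch from lin-39 to ceh-13, and the rest were at egl-5, ceh-40 and ceh-60. The summits of mab-5, nob-1, php-3, ceh-20 and unc-62 had none, so the share is not one of the members at large. The interval of the members holds the share of all pooled regions at this distance. Within 100 bp it did not: the word was at 18 of 64 (28.1%, 17.6 to 40.8%), against 16.1% of all pooled regions. Both intervals treat neighbouring regions of 1 locus as separate draws, which they may not be. The Meis word TGACAG was at 3 of 64 (4.69%, 0.977 to 13.1%), against 2.29% of all pooled regions. Summit windows at the members were rich in A and T, with a median G+C content of 26.7%, close to the 25.7% of all pooled regions and below the 40.6% of optimal peaks. The part of base composition in these word counts was not tested. In the sequences above, the ogt-1 peak carries both overlapping forms of the EOR-1 word at its summit, whereas the leading regions of lin-39 and ceh-13 hold TGATNNAT alone and those of mab-5 and egl-5 hold none of the 4 kinds of word. The ogt-1 peak is not typical, since no other optimal peak nearest to a member had the EOR-1 word. The peak nearest to mab-5 and egl-5 held GAGAG alone, and those nearest to ceh-40 and unc-62 held none of the words.

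**Figure D1:**
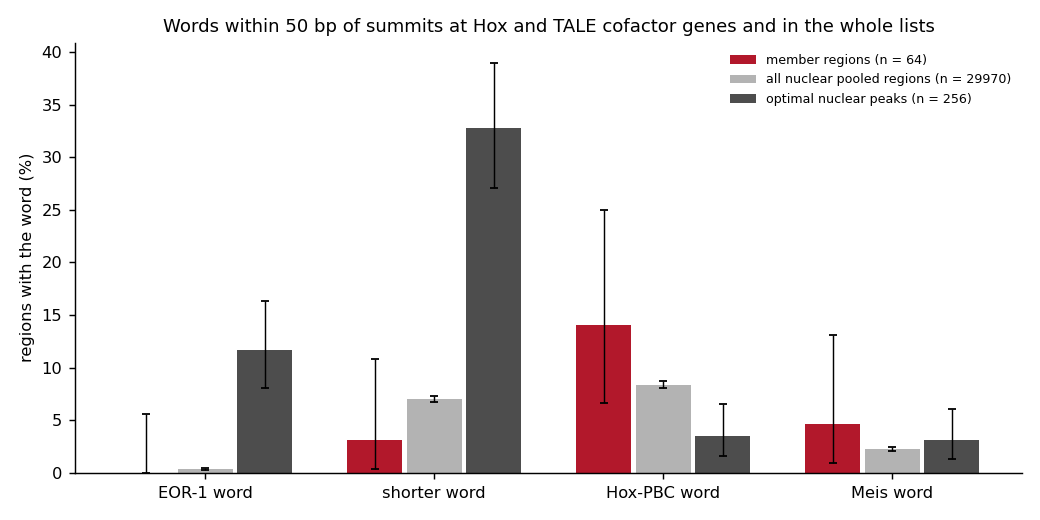
Share of regions, in percent, with each kind of word within 50 bp of the summit, for the 64 regions at Hox and TALE cofactor genes, all nuclear pooled regions and the nuclear optimal peaks. Whiskers are exact 95% intervals, which cover counting error only. The EOR-1 word is at 0 of 64 member summits, at 0.380% of all nuclear pooled regions and at 11.7% of optimal peaks.

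The 4 members of highest pooled density, lin-39, mab-5, egl-5 and ceh-13, lay in dense runs of weak candidate regions. Per 10000 bp of window, the pooled list held 7.23 summits at lin-39, 7.22 at mab-5, 7.05 at egl-5 and 6.46 at ceh-13. The median over all protein-coding genes was 1.94, with quartiles of 0 and 4.51, and these 4 genes lay between the 89.7 and the 93.5 percentile. The replicates gave the same picture at these genes. Replicate 1 had 6.67, 6.02, 7.05 and 4.85 in that order, and replicate 2 had 6.11, 7.22, 5.48 and 5.65, against medians of 2.41 over all genes in each replicate list.

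Density did not run through all 10 genes. Of the other Hox genes, nob-1 had 3.63 summits per 10000 bp and php-3 had 0.750. Among the cofactors, ceh-60 had 5.13, ceh-40 had 3.16, ceh-20 had 2.52 and unc-62 had 0.417. The median over the 10 genes was 4.38 in the pooled list, 3.54 in replicate 1 and 4.72 in replicate 2. Over the 6 Hox genes the pooled median was 6.75, and over the 4 cofactor genes it was 2.84.

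The genes differ in how much free sequence lies upstream of them. Other protein-coding genes covered 0% of the 10000 bp upstream of ceh-13, lin-39, egl-5, nob-1 and unc-62 and 0.09% at mab-5, but 33.5% at ceh-60, 64.6% at ceh-40, 65.2% at php-3 and 73.4% at ceh-20. Among the 865 protein-coding genes with no other gene in that stretch, a grouping chosen after the values were seen, the median pooled density was 4.05 and the upper quartile 6.19. The genes lin-39, mab-5, egl-5 and ceh-13 were above that quartile, nob-1 was below the median and unc-62 was far below it. The part of free upstream sequence in the density at the Hox genes was not tested.

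**Figure D2:**
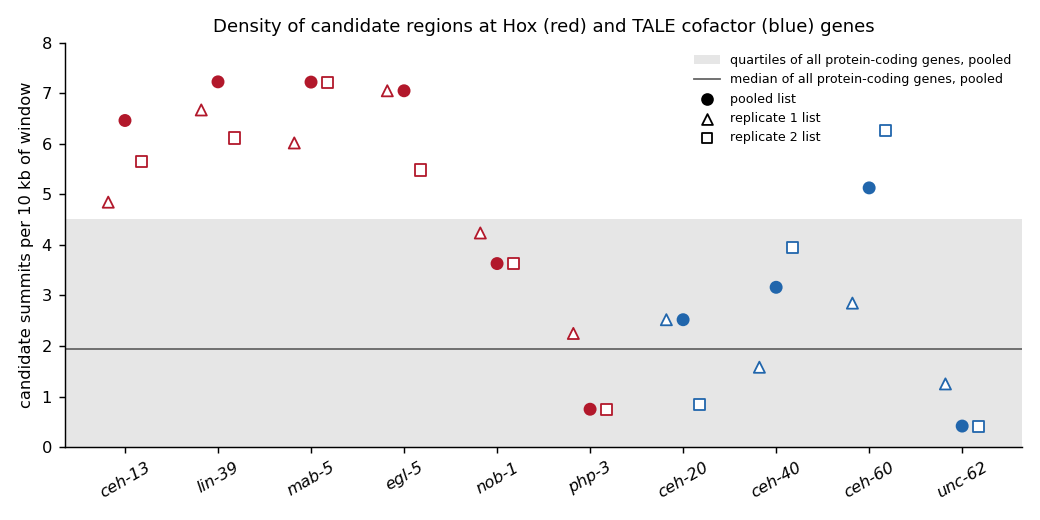
Candidate summits per 10 kb of window (gene plus 10 kb upstream) for each Hox (red) and TALE cofactor (blue) gene in the pooled list (filled circles), replicate 1 (triangles) and replicate 2 (squares), with the median and quartiles of all protein-coding genes in the pooled list. lin-39, mab-5, egl-5 and ceh-13 lie above the upper quartile of all genes in each list, 4.51 in the pooled list, 4.42 in replicate 1 and 4.40 in replicate 2.

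The stretches between neighbouring Hox genes hold largely the regions counted above, so their counts are no separate support. From lin-39 to ceh-13 (chrIII:7528641-7558041) there were 20 pooled summits, or 6.80 per 10000 bp, all 20 already counted above, with 16 in each replicate. From mab-5 to egl-5 (chrIII:7776835-7817141) there were 28, or 6.95 per 10000 bp, 21 of them already counted, with 24 in replicate 1 and 23 in replicate 2. The whole chromosome had 2.97 per 10000 bp in the pooled list. The third pair, php-3 to nob-1 (chrIII:12074218-12084316), had 0 summits in the pooled list and 0 in either replicate, in 10099 bp that hold both genes.

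Most signals at the members were like those of the list at large. The 64 regions ran from 13.02 to 33.4 with a median of 19.3, and all nuclear pooled regions had a median of 19.4. At the top of the list, 3 of the 64 (4.69%, 0.977 to 13.1%) were among the 3000 strongest, against 10.01% of all nuclear pooled regions, a share that the interval holds. The highest −log10 q value at a member was 0.377, against 1.43 for the lowest in the optimal list. Of the 64 regions, 32 overlapped a candidate of both replicates (50%, 37.2 to 62.8%), which is close to the 49.3% of all nuclear pooled regions. A further 31 overlapped a candidate of 1 replicate and 1 of neither. At egl-5 and at ceh-60, a pair of regions matched the same candidates in both replicates, so the 32 are not all separate findings. The intervals treat neighbouring regions of 1 locus as separate draws. By gene group, 26 of 47 regions at Hox genes (55.3%, 40.1 to 69.8%) and 6 of 17 at cofactor genes (35.3%, 14.2 to 61.7%) were in both, with intervals that overlap.

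Taken by gene, 9 of 10 members had at least 1 pooled region found in both replicates (exact 95% interval 55.5 to 99.7%), against 57.6% of all protein-coding genes, and php-3 had none. The share was 77.6% among the 865 genes with no other protein-coding gene in the 10000 bp upstream, and the interval holds both shares. Among the 3000 nuclear regions of highest signal, 3 of 10 members had a summit (6.67 to 65.2%), against 24.9% of all genes and 35.8% of those 865. The 3 members were lin-39, mab-5 and egl-5. The count hangs on where the limit is set, since the leading regions of ceh-13 and ceh-40 just missed it, at nuclear ranks 3003 and 3019. In the replicates' own lists the count was 4 of 10 in replicate 2 (26.4% of all genes) and 5 of 10 in replicate 1 (26.3% of all genes). The genes differed: replicate 2 had egl-5, nob-1, ceh-40 and ceh-60, and replicate 1 had mab-5, nob-1, php-3, ceh-20 and ceh-40. The 5 in replicate 1 are not all separate findings, since nob-1 and php-3 have the same leading region there, chrIII:12084735-12085024 at rank 1573. In replicate 2, the leading summit of ceh-40 lay just inside the 10000 bp limit. The pooled region overlapping it had its summit just outside, 10001 bp upstream.

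**Figure D3:**
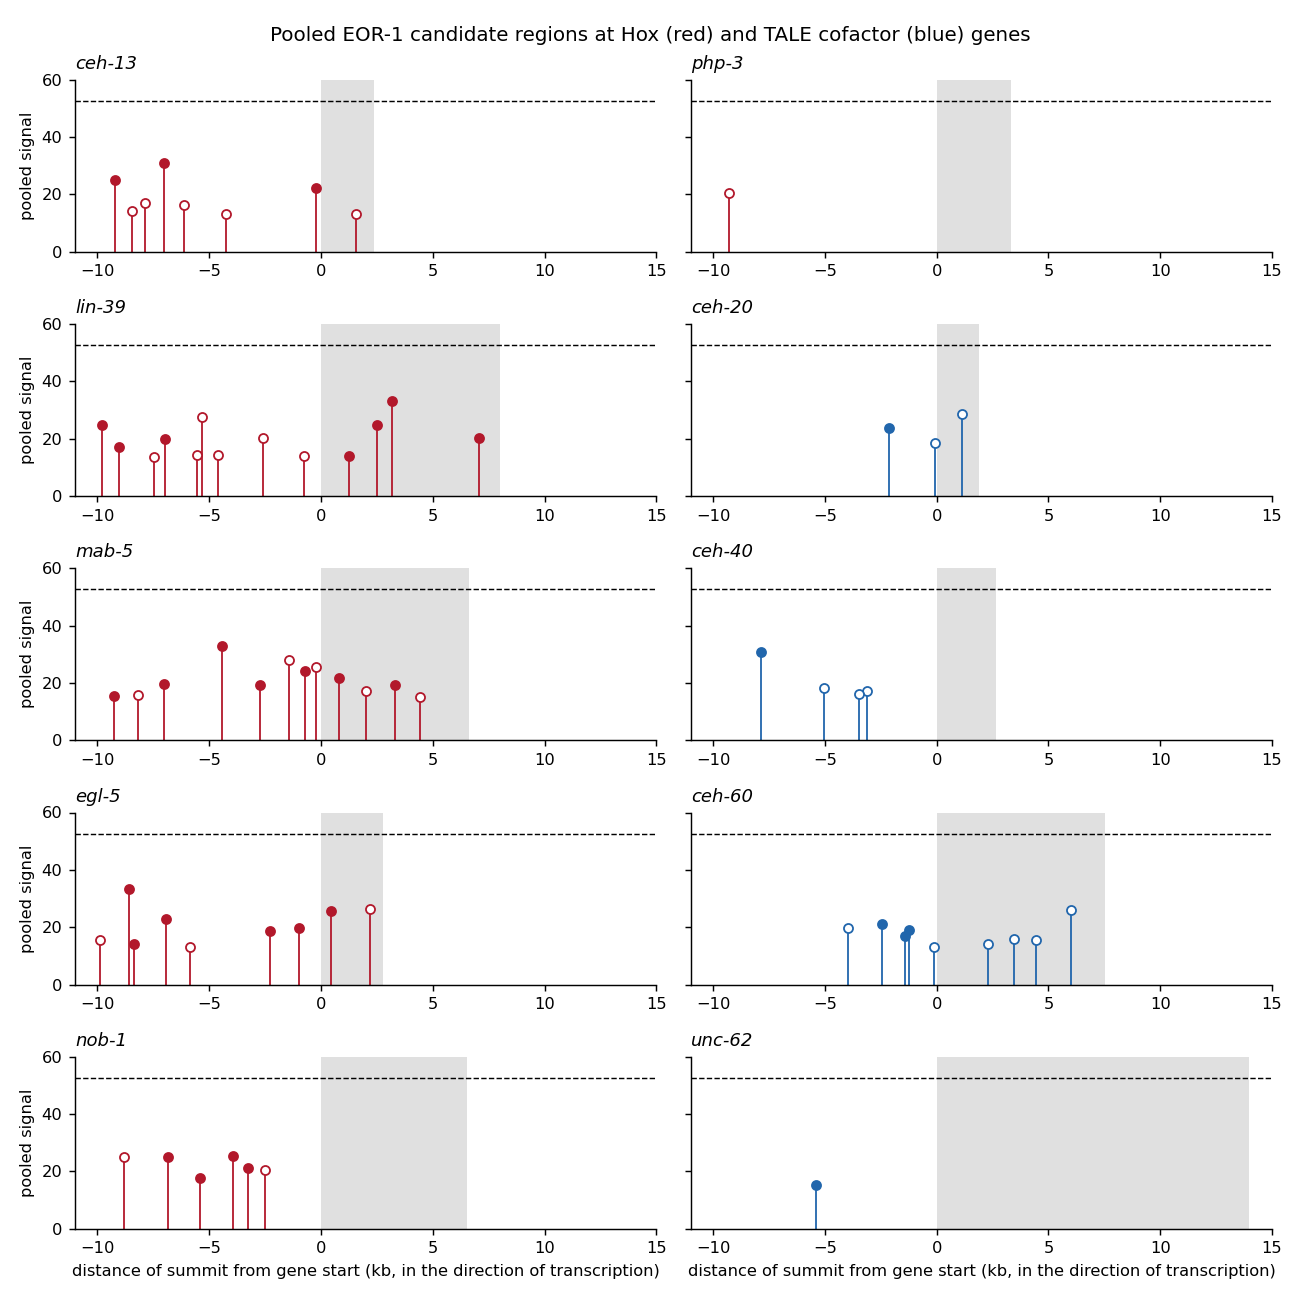
Pooled candidate regions at each gene, by distance of the summit from the gene start (kb, in the direction of transcription) and by pooled signal. Filled points overlap a candidate of both replicates and open points do not, grey marks the gene body, and the dashed line is the lowest signal of a nuclear optimal peak, 52.7. Every point lies below the line, and the bodies of nob-1, php-3, ceh-40 and unc-62 hold none.

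ceh-13 (WBGene00000437, chrIII:7555660-7558041, plus strand), the labial-type Hox gene, needed for embryonic body shape, had 8 pooled regions. The strongest, chrIII:7548490-7548785, was intergenic with its summit 7022 bp upstream. It had a signal of 30.9 (rank 3033), 12.99 in replicate 1 (rank 11901) and 13.6 in replicate 2 (rank 7760). The region closest to the gene start, 213 bp upstream, had 22.1, with 10.3 and 7.64 in replicates 1 and 2. One region lay in coding sequence, 1571 bp into the gene, with a signal of 13.1, and was found in replicate 1 only. Of the 8 regions, 3 were in both replicates. The region chrIII:7546294-7546589, between the divergent ceh-13 and lin-39, counts for both genes, 9218 bp upstream of ceh-13 and 9810 bp upstream of lin-39. Its signal was 24.9, with 15.6 in replicate 1 and 12.1 in replicate 2.

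lin-39 (WBGene00003024, chrIII:7528641-7536632, minus strand), the Hox gene of the midbody that vulval precursor cells need, had the most regions, 13, of which 7 were in both replicates. Its strongest, chrIII:7533308-7533603, lay in an intron, 1349 bp from the closest lin-39 transcript start. It had 33.2 (rank 2120), 17.2 in replicate 1 (rank 4653) and 14.5 in replicate 2 (rank 6340). This was the leading region of lin-39 in all 3 candidate lists. A second intron region, chrIII:7534003-7534298, had 24.6, with 10.9 and 7.18. Upstream, chrIII:7541816-7542111 had 27.5 and was found in replicate 2 only, at 10.7. The region beside it, chrIII:7542018-7542313 (14.2), overlapped it and matched the same replicate 2 candidate, so the 13 include this pair. Within lin-39's own promoter windows, which reach 1000 bp up from a transcript start and 200 bp down, the 2 regions were weak, at 13.9 and 13.8. A pair of upstream regions lay in linc-57, a long non-coding RNA gene, with signals of 19.9 and 13.6.

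mab-5 (WBGene00003102, chrIII:7776835-7783454, minus strand), which directs the posterior migration of the QL neuroblast descendants, had 12 regions, 7 of them in both replicates. For 8 of the 12 the closest transcript start was that of mab-5, and the rest lay closer to another gene's start. The strongest, chrIII:7787741-7788036, was 4435 bp upstream, with 32.8 (rank 2268), 19.3 in replicate 1 (rank 2823) and 13.9 in replicate 2 (rank 7320). The next, chrIII:7784748-7785043, 1442 bp upstream, had 28.2. It matched the highest member rank in replicate 1, 730 (signal 25.1), and no candidate of replicate 2 overlapped the pooled region. The replicate 1 region itself, whose bounds differ slightly, touched a replicate 2 candidate of 12.03 at rank 11137. In its promoter window mab-5 had a region 209 bp upstream with 25.7, found in replicate 2 only at 16.995, and one 715 bp upstream with 24.3 (11.99 and 16.9 in replicates 1 and 2). A further 4 regions lay in its introns, from 14.97 to 21.6.

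egl-5 (WBGene00001174, chrIII:7814374-7817141, plus strand), an Abdominal-B-type gene of tail and male tail patterning, had the highest pooled signal of all members. The region chrIII:7805655-7805950, 8571 bp upstream, had 33.4 (rank 2062). It was uneven between replicates, with 11.01 at rank 17733 in replicate 1 and 21.6 at rank 1101 in replicate 2. A weaker pooled region beside it, chrIII:7805867-7806162 (14.1), overlapped the same replicate regions, so these are not separate findings. Within the gene, chrIII:7816416-7816711 in a UTR had 26.2, found in replicate 2 only at 14.8, and chrIII:7814653-7814948 in an intron had 25.6 (13.8 and 7.22). Its promoter region, 991 bp upstream, had 19.7. Of its 9 regions 6 were in both replicates.

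nob-1 (WBGene00003779, chrIII:12077793-12084316, minus strand) and php-3 (WBGene00004024, chrIII:12074218-12077556, minus strand) are adjacent Abdominal-B-type genes that pattern the posterior embryo and tail. All 6 pooled regions of nob-1 were intergenic and upstream, and 4 were in both replicates. The strongest, chrIII:12088113-12088408, was 3945 bp upstream with 25.2 (rank 7020), 14.2 in replicate 1 and 17.1 in replicate 2. A region 8807 bp upstream had 24.97 and was found in replicate 2 only, at 20.7 and rank 1343. The highest replicate 1 region, chrIII:12084735-12085024, had 21.6 at rank 1573 and overlapped no candidate of replicate 2 or of the pooled list. It also counts for php-3. php-3 had 1 pooled region, chrIII:12086679-12086974 (20.4), which lies 9271 bp upstream of php-3 but 2511 bp upstream of nob-1, and counts for both. It was in replicate 1 at 9.11 and not in replicate 2.

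ceh-20 (WBGene00000443, chrIII:6979884-6981785, plus strand), the main PBC-class cofactor of the larva, had 3 regions. That of highest signal, chrIII:6980887-6981182, was in an intron with 28.4 (rank 4392). It stood at 23.1 (rank 1096) in replicate 1 and was not in replicate 2. The transcript start closest to it was that of F31E3.6, at 1046 bp, against 1151 bp for that of ceh-20. The region chrIII:6977583-6977878, inside the neighbour F31E3.2 and 2153 bp upstream of ceh-20, was in both, with 23.7 pooled, 16.9 in replicate 1 and 10.8 in replicate 2. Its promoter region, 96 bp upstream, had 18.6 and was in replicate 1 only.

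ceh-40 (WBGene00000461, chrX:12318126-12320777, minus strand) encodes a second PBC-class protein, and its 4 regions all lay at chemoreceptor-family genes upstream of it. The strongest, chrX:12328474-12328769, was 354 bp from the transcript start of srd-45 and 7845 bp upstream of ceh-40. It had 30.8 (rank 3049), 18.6 in replicate 1 and 14.1 in replicate 2. The others, at srd-41 and srd-40, had 16.03 to 18.3 and were in 1 replicate each. None of the 4 had ceh-40 as the closest transcript start.

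ceh-60 (WBGene00017690, chrX:6522596-6530146, minus strand) encodes the PBC-class protein known to act with UNC-62 in yolk production. It had 9 regions, 3 in both replicates. The strongest, chrX:6523977-6524272, was in an intron with 26.1 (rank 6229), and was found in replicate 2 only, at 19.2 and rank 1932. The transcript start closest to it was that of ets-4, at 4306 bp, against 6021 bp for that of ceh-60. The strongest in both replicates, chrX:6532449-6532744, was 2451 bp upstream with 21.0 (15.3 and 7.30 in replicates 1 and 2). A pair of overlapping regions 1231 and 1430 bp upstream had 18.9 and 16.8 and matched the same candidate in each replicate. Its promoter region, 105 bp upstream, was among the weakest of all in the pooled list, at 13.2. That region was found in replicate 2 only, at 13.3 and rank 8265.

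unc-62 (WBGene00006796, chrV:4497461-4511449, plus strand), the Meis-class cofactor gene, had 1 pooled region, at the 31.6 percentile of pooled density over all protein-coding genes. Its window held 3 candidates of replicate 1 and 1 of replicate 2. Its body of 13989 bp held 0 summits in the pooled list and 0 in either replicate. The single pooled region, chrV:4491903-4492198, was intergenic, 5410 bp upstream. It had 15.2 (rank 24102), 9.05 in replicate 1 and 7.25 in replicate 2. Its strongest replicate region was 12.97 at rank 11946 in replicate 1, and the pooled list had no overlapping region.

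By location, 33 of the 64 regions were intergenic (51.6%), 13 in introns of the member (20.3%), 8 in its promoter windows (12.5%), 1 in its UTR and 1 in its coding sequence. A further 3 lay in promoters of other genes, 3 inside other genes and 2 in a non-coding gene. Upstream of the gene start lay 48 and inside the gene 16. Signals in the 8 promoter regions ran from 13.2 at ceh-60 to 25.7 at mab-5, and each of the leading regions of the 10 genes lay elsewhere. The same shares over all genes are not given here, and promoter windows are a small part of each window. These counts therefore do not show a trait of the members.

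At most members the replicates placed their strongest region at different sites. For each gene with a candidate in both replicate lists, the strongest region of replicate 1 was set against that of replicate 2, a comparison added after the values were seen. They overlapped at 1 of the 10 members, lin-39 (10%, exact 95% interval 0.253 to 44.5%), and at 24.7% of all such genes, a share that the interval holds. At egl-5 the leading region of replicate 1 was rank 8724 and that of replicate 2 rank 1101. Replicate 2 ranked the first site 23929, and replicate 1 ranked the second 17733. At ceh-40 the leading regions had ranks 1247 and 1295 but lay apart, at chrX:12325712-12326001 and chrX:12330625-12330924. At unc-62 they had ranks 11946 and 28657.

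**Figure D4:**
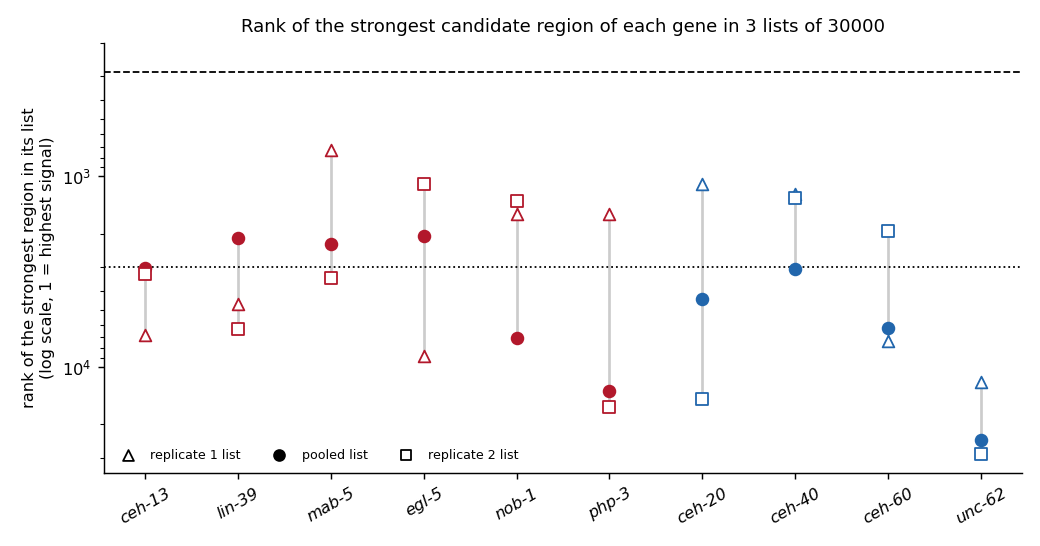
Rank, on a log scale with rank 1 at the highest signal, of the strongest candidate region of each gene in replicate 1 (triangles), the pooled list (circles) and replicate 2 (squares). The dotted line is rank 3000 and the dashed line rank 285, the length of the optimal list. No point reaches rank 285, and the best is mab-5 in replicate 1 at 730.

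The nearest optimal peaks lay far outside the windows. The closest was chrX:12363109-12363202 (signal 156), 42406 bp from ceh-40, followed by chrX:6593416-6593711 (87.7), 63418 bp from ceh-60. For php-3 and nob-1 the distance was 127681 and 131256 bp to the same peak (126), and for ceh-20 it was 132408 bp. For lin-39 and ceh-13 it was 374575 and 401594 bp to the ogt-1 peak (67.2), for egl-5 and mab-5 490436 and 524123 bp to another, and for unc-62 538047 bp.

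At the 10000 bp limit, the pooled values on either side were alike and weak. The farthest regions inside it were 9899 bp upstream of egl-5 (15.4), 9810 bp upstream of lin-39 (24.9) and 9271 bp upstream of php-3 (20.4). Just outside were regions 10001 bp upstream of ceh-40 (23.6), 10008 bp upstream of ceh-13 (17.2) and 10014 bp upstream of php-3 (21.3). The last 2 of these count among the 64 through the neighbouring gene, lin-39 and nob-1 in turn. Farther out, a region 20712 bp upstream of ceh-60 had 38.1 (rank 1074), above every region inside the windows.

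Optimal peaks at related genes are given beside the 3.14% of all genes. Of 59 other genes named ceh-, the homeobox class, 1 had an optimal peak in its window (1.69%), ceh-54 (56.8, 9706 bp upstream). None of 15 genes that act on Hox expression did, among them the Polycomb-type genes mes-2, mes-3, mes-6 and sop-2, the Wnt genes egl-20 and lin-44 and the beta-catenin gene bar-1. Among 15 targets of Hox proteins or their cofactors, including egl-1, hlh-8, mig-13, psa-3 and the vitellogenin genes, 1 did (6.67%). It was egl-17, the FGF gene expressed in vulval cells, whose peak had 88.0 and lay 283 bp inside the gene. Strong candidates, in the first 3000, were at 9 of 59 other ceh- genes (15.3%), 4 of 15 regulators (26.7%) and 3 of 15 targets (20%), against the 24.9% of all genes. The median pooled density was 2.55 in the other ceh- genes, 3.42 in the regulators and 0 in the targets, and none of these differences was tested.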

How the data were processed

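Per the deposited README, the authors called candidate regions (peaks and background) against a control, once per replicate and once on pooled reads, and derived the optimal list from the 3 results. Each deposited region carries a signal value and the −log10 of a q value. No source used here names the caller, the aligner or the read depth. Per the labels, fragments were of 150 to 350 bp. The summit sat at the same offset in 99.8% of pooled regions, 148 bp into a region usually of 296 bp. How finely a summit places a site cannot be read from these lists. Lists in build ce11 were used, and those in ce10 were not.

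Genes came from Ensembl release 115 (WBcel235). Windows, overlaps of 1 bp or more and words within 50 bp of summits were counted with Python 3.11.15, numpy 2.4.6, pandas 2.3.3 and SciPy 1.17.1, and plotted with matplotlib 3.10.9. The counting was checked on simulated data. A summit took the first class that applied, from the member's promoter to intergenic. Where several candidates of a replicate overlapped, the one of highest signal was given. Intervals are exact Clopper-Pearson and cover counting error only. Members, lists and words were chosen with earlier results of these data known, so counts stand beside those of all genes, with no test. Named were the members, their 3 strongest regions, and other genes that hold or neighbour these or have an optimal peak. Exceptions are marked.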

Additional observations from a re-analysis of the deposited data

How the results depend on the processing

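No paired analysis was possible because there was 1 group. The count of 0 members with an optimal peak held for windows of 5000 and 1000 bp upstream, with 10000 bp downstream added, and by any overlap. No list without 1 replicate exists for it. With 1000 bp upstream, 4 members had a region in both replicates (against 28.4% of all genes), 1 had a strong region (9.46% of all genes) and the median density was 5.70 (0 over all genes). Strong regions were at 0 members among the 1000 strongest (10.5% of all genes) and at 6 among the 6000 strongest (39.1% of all genes). Leaving out each replicate in turn gave 4 to 5 members with a strong region (26.3 to 26.4% of all genes), a median density of 3.54 to 4.72 (2.41 over all genes), and 10 members with a candidate when no overlap was asked (74.9 to 75.3% of all genes). The 5 members, found without replicate 2, include nob-1 and php-3, which share 1 leading region. Among the 15000 strongest regions, 21 of 31 at members were in both replicates (67.7%, against 73.6% of all). Within 100 bp, TGATNNAT was at 28.1% of member summits (interval 17.6 to 40.8%), which leaves out the 16.1% of all pooled regions, unlike the interval within 50 bp. Both intervals treat neighbouring regions of 1 locus as separate draws. The cause of these shifts was not tested. Counted for the closest transcript start alone, the median density was 3.81 (0 over all genes) and php-3 and ceh-40 kept 0 regions. Read depth is unknown, so no precision attaches to a single signal.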
